A study of Mus musculus with 24 samples.

Results

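The 58 genes described here are the Wnt ligands, receptors and modulators of the mouse, picked by symbol from 21938 protein-coding genes of build mm10. They comprise 19 Wnt ligands, 12 receptors (10 Frizzled genes, Lrp5 and Lrp6), 6 genes of the R-spondin axis, 9 secreted inhibitors, 8 cytoplasmic components and 4 TCF/LEF factors. MYT1L, a zinc finger transcription factor of neurons, was mapped by CUT&RUN. In this assay a nuclease fused to an antibody-binding protein (pAG-MNase) cuts the chromatin next to the antibody, and the freed fragments are sequenced. A gene was counted as a target when at least 1 bp of a MYT1L site lay within 5 kb of the start of any of its transcripts, and the question was which Wnt genes were targets at which stage.

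All mice were C57BL/6J by the labels, of unknown sex, although the study's methods name C57BL/6N for the zygotes and for the first crosses of the mutant line. The groups were wild-type (WT) cortex at embryonic day E18.5, WT prefrontal cortex at birth (P0), WT prefrontal cortex of adults aged 3 months, and prefrontal cortex of adults of that age heterozygous for Myt1l (HET). By the study's methods the HET mice carried a frameshift deletion made by genome editing of zygotes, in all cells rather than in neurons alone, and prefrontal cortex was used at each stage. Each group had 3 MYT1L and 3 IgG libraries, 24 in all. Titles of some adult libraries read Myt2l or Myt3l, and these were grouped with MYT1L because their descriptions point to the Myt1l list. The authors deposited 1 merged site list per MYT1L group, with 14477 sites for E18.5, 40698 for P0, 32145 for adult WT and 56937 for adult HET. Sites are given by start and end alone, so no value below has a replicate error or a test, sequencing depth was unknown, and neither tissue nor genotype could be checked from the lists. E18.5 and P0 were sequenced in run 1 and both adult groups in run 2, so that age and run cannot be told apart. A site absent from a list was not called there, which differs from an absence of binding.

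Wnt ligands are secreted lipid-modified proteins that bind a Frizzled receptor together with LRP5 or LRP6. In the canonical branch this halts the destruction of beta-catenin by the AXIN, APC and GSK3B complex, and beta-catenin then acts with TCF/LEF factors on target genes. In the cortex the pathway acts on the proliferation of progenitors, on regional patterning and, later, on axons and synapses. R-spondins raise receptor levels by removing the ubiquitin ligases RNF43 and ZNRF3, while DKK, SFRP and WIF1 proteins act outside the cell on the ligands or on the co-receptors.

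Sequence is shown at the places the results return to: first the MYT1L core word, AAAGTT, in sites of the genes with the most site sequence. Each line gives 66 bases of mm10 on the strand of the gene, with capitals for 1 match per stretch to the word or its reverse complement, AACTTT. The Fzd7 stretch holds a second match, aaagtt, left in lower case. The Rspo2 stretch (chr15:43167580-43167645, minus strand, intron) lay in an E18.5 site and again in a P0 site. The Fzd7 stretch (chr1:59481862-59481927, plus strand, upstream) and the Rspo3 stretch (chr10:29538939-29539004, minus strand, upstream) lay in P0 sites that overlapped E18.5 sites. Those of Gsk3b (chr16:38091354-38091419, plus strand, intron) and Tcf7l2 (chr19:55890345-55890410, plus strand, intron) came from sites called at P0 alone, and both windows begin before the site does.
Rspo2: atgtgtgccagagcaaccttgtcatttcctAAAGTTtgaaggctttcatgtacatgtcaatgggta
Fzd7: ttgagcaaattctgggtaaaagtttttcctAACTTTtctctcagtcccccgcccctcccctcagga
Rspo3: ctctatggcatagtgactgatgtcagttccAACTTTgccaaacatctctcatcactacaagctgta
Gsk3b: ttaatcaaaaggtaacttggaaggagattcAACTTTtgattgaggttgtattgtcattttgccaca
Tcf7l2: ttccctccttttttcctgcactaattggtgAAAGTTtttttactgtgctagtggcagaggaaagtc

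The next stretch is shown because it was common to the E18.5, P0 and adult WT sites at the start of Axin1. It spans 111 bases upstream of the gene (chr17:26138395-26138505, mm10, plus strand), and capitals mark its 10 CpG dinucleotides.
Axin1: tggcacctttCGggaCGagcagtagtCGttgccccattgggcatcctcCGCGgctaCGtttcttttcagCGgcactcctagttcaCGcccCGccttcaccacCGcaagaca

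The last stretch, 27 bases at the start of Axin2 (chr11:108920417-108920443, mm10, plus strand, annotated as UTR), lay in the E18.5 and P0 sites. Axin2 is a feedback inhibitor that Wnt signalling itself switches on, and capitals mark CTTTGAT, the reverse complement of ATCAAAG, a word that TCF/LEF factors bind.
Axin2: gccggctgcgCTTTGATaaggtcctgg

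MYT1L sites lay near the starts of 34 of the 58 genes in at least 1 list, mostly at the perinatal stages. At E18.5, 19 genes (32.8%) were targets, beside 31.7% of all protein-coding genes. P0 had 32 target genes (55.2%), against 48.7% of all genes. The adult WT list had 9 target genes (15.5%), against 24.6% of all genes, and the adult HET list 10 (17.2%), against 30.4%. The E18.5 share was thus close to that of all genes, the P0 share a little above it and both adult shares below it. This order depended on the distance: within 1 kb of a start, the shares were 22.4% at E18.5 (27.7% of all genes) and 41.4% at P0 (41.8%), so that P0 no longer lay above all genes and E18.5 lay below them.

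Most Wnt genes have a start rich in CpG, a class with a higher share of targets in each list, and against that class the shares were lower. Of the 44 genes with such a start (GC of at least 50% and an observed to expected CpG ratio of at least 0.6 in 500 bp to each side of the 5′ end), 16 (36.4%) were targets at E18.5, where 52.2% of all CpG-rich starts were. At P0, 26 (59.1%) were targets, beside 75% of the class. In adult WT 8 (18.2%) were, beside 33.7%, and in adult HET 8 (18.2%), beside 36.2%.

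**Figure D1:**
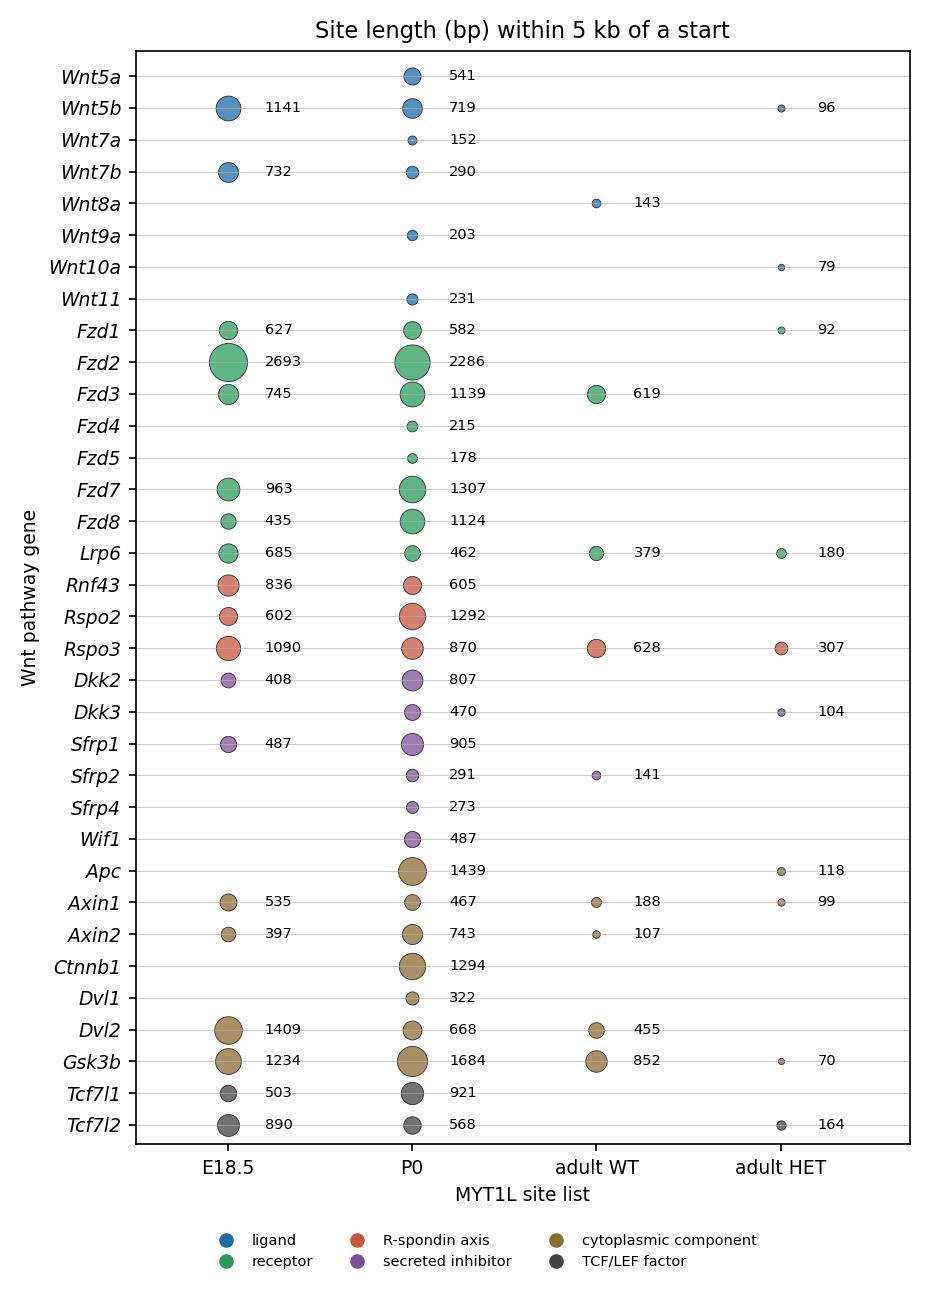
Base pairs of MYT1L sites within 5 kb of a transcription start (number and circle area) for the 34 Wnt pathway genes with a site in at least 1 list (rows, coloured by role) in each of the 4 site lists (columns). Fzd2 has the largest circles at both perinatal stages (2693 and 2286 bp) and none in the adult lists, and the adult HET circles reach at most 307 bp, at Rspo3.

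The ligands had the lowest share of targets at E18.5, at P0 and in adult HET. The E18.5 and adult HET ranks depended on the settings. Within 1 kb of a start, the R-spondin axis had 0 targets at E18.5 and the ligands 1. With 1 start per gene, its 5′ end, the ligands kept 2 adult HET targets. The cytoplasmic components, R-spondin axis and TCF/LEF factors then had 0. Of the 19 Wnt genes, 2 were targets at E18.5 (10.5%, beside 31.7% of all genes) and 6 at P0 (31.6%, beside 48.7%). Adult WT had 1 (5.26%, beside 24.6%) and adult HET 2 (10.5%, beside 30.4%). Wnt7b, a ligand needed for the growth of brain vessels, had 1 site at each perinatal stage, of 732 bp at E18.5 and 290 bp at P0, both upstream and within 1 kb of its start at their near edge. Wnt5b held 1141 bp at E18.5 and 719 bp at P0 in an intron, 1992 and 2433 bp from an internal start, and a separate site of 96 bp in adult HET, 4444 bp from another start. Wnt5a, which acts mainly through non-canonical branches, had 3 sites summing to 541 bp at P0 and none in the other lists. Wnt7a, Wnt9a and Wnt11 each had 1 P0 site, of 152, 203 and 231 bp. Wnt8a (143 bp, 3942 bp from its start) was a target in adult WT alone and Wnt10a (79 bp, in an intron) in adult HET alone. The other 11 ligands, namely Wnt1, Wnt2, Wnt2b, Wnt3, Wnt3a, Wnt4, Wnt6, Wnt8b, Wnt9b, Wnt10b and Wnt16, were targets in no list.

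Of the 12 receptor genes, 6 were targets at E18.5 (50%, beside 31.7% of all genes) and 8 at P0 (66.7%, beside 48.7%). Each adult list had 2 (16.7%, beside 24.6% of all genes in WT and 30.4% in HET). Fzd2 had the most site sequence of all 58 genes. Its 3 sites at E18.5 summed to 2693 bp and its 3 sites at P0 to 2286 bp, with none in either adult list. The widest of them covered the start and the DNA before it, at chr11:102603226-102604778 at E18.5 and chr11:102603224-102604672 at P0. The other Fzd2 sites lay in the coding exon and in the UTR about 3 kb further on. Fzd7 had 1 site over its start at E18.5 (963 bp) and 4 sites at P0 (1307 bp). Those of 698 and 220 bp overlapped the E18.5 site, and the others lay 1384 and 3829 bp from the start. Fzd8 had 1 site over its start at E18.5 (435 bp) and 4 sites at P0 (1124 bp), of which the one over the start (328 bp) overlapped it. Fzd1 had 1 site over its start at each perinatal stage (627 and 582 bp) and a separate one of 92 bp, 2560 bp downstream of the start, in adult HET. Fzd4 (215 bp) and Fzd5 (178 bp) were targets at P0 alone, one of the 2 Fzd4 sites lying nearer the start of the neighbouring gene Tmem135.

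Fzd3, a receptor known for axon guidance, and Lrp6 were the receptor genes with sites in all 3 WT lists. At Fzd3 the site common to those lists (745 bp at E18.5, 483 bp at P0, 426 bp in adult WT) lay about 4 kb upstream, where the nearest start is that of Fbxo16. A site over the start of Fzd3 itself (190 bp) was called at P0 alone. Lrp6, a co-receptor of the canonical branch, had a site of 685 bp upstream of its start at E18.5. At P0 it had 3 sites of 101 to 238 bp over and upstream of the start. Its 3 adult WT sites lay elsewhere. One lay 3365 bp upstream and was 100% repeat-masked, and the others lay deep in the gene, 205 and 4723 bp from internal starts. The adult HET site of Lrp6 (180 bp) lay in an intron. Fzd6, Fzd9, Fzd10 and Lrp5 were targets in no list.

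In the R-spondin axis, 3 of 6 genes (50%) were targets at each perinatal stage, beside 31.7% of all genes at E18.5 and 48.7% at P0. Each adult list had 1 (16.7%, beside 24.6% of all genes in WT and 30.4% in HET). Rspo2 had 1 intronic site at E18.5 (602 bp) and 3 sites at P0 (1292 bp), and the AAAGTT shown above lay within 75 bp of the midpoint of the site common to both. Rspo3 was a target in all 4 lists, with 1090 bp in 2 sites at E18.5, 870 bp in 3 sites at P0, 628 bp in 2 sites in adult WT and 307 bp in 2 sites in adult HET. Its upstream sites did not coincide across age. Relative to the start, the perinatal midpoints lay at -3025 bp (E18.5) and -3098 bp (P0). Those of adult WT lay at -2350 and -3904 bp, one to each side of the perinatal sites. The Rnf43 sites (836 and 605 bp) lay beyond the 3′ end of the gene, nearest the start of Supt4a. Rspo1, Rspo4 and Znrf3 were targets in no list, although Znrf3 had sites inside the gene, more than 5 kb from a start, in each list (1, 4, 2 and 3 in the order E18.5, P0, adult WT and adult HET).

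Of the 9 secreted inhibitors, 2 were targets at E18.5 (22.2%, beside 31.7% of all genes) and 6 at P0 (66.7%, beside 48.7%). Each adult list had 1 (11.1%, beside 24.6% of all genes in WT and 30.4% in HET). With the widest sites in equal number per list, the counts were 2 at E18.5 (beside 31.7% of all genes) and 3 at P0 (beside 29.1%). Within 1 kb of a start, 1 of the 9 was a target at E18.5 (beside 27.7%) and 2 at P0 (beside 41.8%), so the P0 share no longer lay above all genes. Sfrp1, a Wnt-binding protein of cortical progenitors, had a site over its start that began at the same base at both perinatal stages, chr8:23411083-23411569 at E18.5 and chr8:23411083-23411595 at P0, and a second P0 site of 392 bp. Dkk2 had 1 intronic site at each perinatal stage, of 408 and 807 bp. Wif1 (487 bp in 2 upstream sites), Sfrp2 (291 bp), Sfrp4 (273 bp) and Dkk3 (470 bp in 2 sites) had P0 sites and no E18.5 site. The Sfrp4 site lay nearer the start of Epdr1. Sfrp2 had another site in adult WT (141 bp, in its coding exon) and Dkk3 another in adult HET (104 bp, in an intron), neither of which overlapped the P0 sites. Dkk1, Dkk4 and Sfrp5 were targets in no list.

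The cytoplasmic components had the highest share of targets at P0 and in both adult lists. The adult HET rank rested on sites near internal starts, and with 1 start per gene 0 of the 8 were targets there. Of 8 genes, 4 were targets at E18.5 (50%, beside 31.7% of all genes) and 7 at P0 (87.5%, beside 48.7%). Adult WT had 4 (50%, beside 24.6%) and adult HET 3 (37.5%, beside 30.4%), and Dvl3 alone was a target in no list. Axin1, the scaffold of the beta-catenin destruction complex, had 1 site at its start in each WT list, of 535, 467 and 188 bp, which share the 111 bases printed above. Its adult HET site (99 bp) lay in an intron, 44658 bp from the 5′ end of the gene and 4758 bp from an internal start. Axin2 had sites of 397 bp at E18.5, 743 bp at P0 and 107 bp in adult WT, and the adult WT site fell within the P0 site but outside the E18.5 site. Ctnnb1, which encodes beta-catenin, had 4 sites at P0 (1294 bp), one of them over a start, and none in the other lists. Apc had the most sites of any of the genes in a list, 5 at P0 (1439 bp), and 1 intronic site in adult HET (118 bp).

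Gsk3b, which encodes the kinase that marks beta-catenin for destruction, had the second most site sequence of the 58 genes. The site of 1234 bp at E18.5 and one of 953 bp at P0 lay upstream, ending 651 and 790 bp before the start. The adult WT site (852 bp, chr16:38088684-38089535) instead covered the start. P0 had 3 further sites in an intron, among them the one printed above, and adult HET a site of 70 bp 53929 bp inside the gene. Dvl2, an adaptor that carries the signal from Frizzled receptors, had a site about 5 kb upstream in each WT list (1007, 493 and 455 bp) that lay nearest the start of Phf23. A site over the start of Dvl2 (402 bp) was called at E18.5 alone, and Dvl1 had 2 sites at P0 alone (322 bp), one of them over its start.

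Of the 4 TCF/LEF factors, Tcf7l1 and Tcf7l2 were targets at E18.5 (50%, beside 31.7% of all genes) and P0 (50%, beside 48.7%). All 4 have a CpG-rich start, and of all genes with such a start 52.2% were targets at E18.5 and 75% at P0. Lef1 and Tcf7 were targets in no list. Tcf7l1, mostly a repressor of Wnt targets, had a site of 503 bp just upstream of its start at E18.5 and 2 sites summing to 921 bp at P0. Tcf7l2 had a site over its start at both stages (890 and 342 bp), 2 more at P0 near internal starts, and a separate intronic site of 164 bp in adult HET. Away from starts, Tcf7l2 held 5 sites at P0, 4 in adult HET and 1 in adult WT, and Lef1 held 2 in adult HET. In all, 7 of the 24 genes without a target call had a site in the gene body in at least 1 list (Wnt2, Wnt16, Fzd6, Rspo1, Rspo4, Znrf3 and Lef1). Sites in gene bodies were not counted over all genes, so the 7 are not read as a trait of the Wnt genes.

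**Figure D2:**
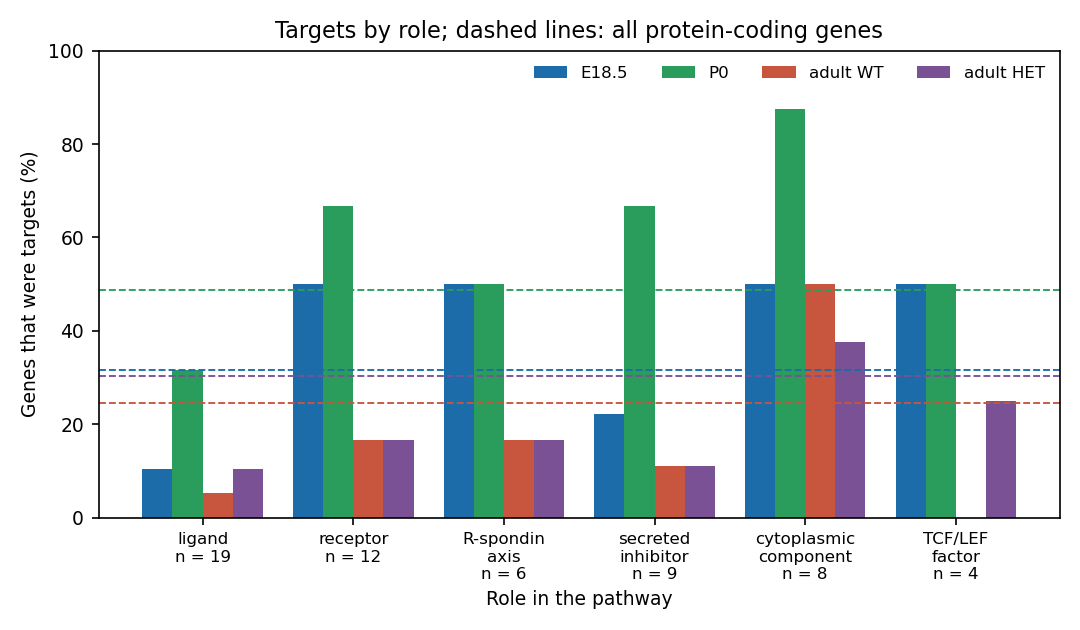
Share of genes that were targets (vertical axis, %) in each of 6 roles (horizontal axis, with the number of genes), with 1 bar per site list and a dashed line at the share of all protein-coding genes in that list. The ligand bars lie below their dashed lines in every list, and the bars of the cytoplasmic components lie above theirs. With 1 start per gene, which is not drawn, 0 cytoplasmic components were adult HET targets.

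Counted by pattern, 10 genes were targets at P0 alone (Wnt5a, Wnt7a, Wnt9a, Wnt11, Fzd4, Fzd5, Sfrp4, Wif1, Ctnnb1 and Dvl1) and 9 at E18.5 and P0 alone (Wnt7b, Fzd2, Fzd7, Fzd8, Rnf43, Rspo2, Dkk2, Sfrp1 and Tcf7l1). The shares of all genes with these patterns were not counted, so neither count is read as a trait of the Wnt genes. The P0 list held 40698 sites, against 14477 at E18.5. Targets in all 4 lists were Lrp6, Rspo3, Axin1 and Gsk3b (6.90%, beside 7.22% of all genes), and 24 genes (41.4%, beside 35.3%) were targets in none. All 19 E18.5 targets were also P0 targets, as were 94.2% of E18.5 targets over all genes. In the other direction, 19 of the 32 P0 targets (59.4%, beside 61.3%) were E18.5 targets. Of the 39 genes that were not E18.5 targets, 13 (33.3%, beside 27.6%) were P0 targets. Of the 32 P0 targets, 8 (25.0%, beside 37%) were adult WT targets, and these made up 8 of the 9 adult WT targets (88.9%, beside 73.2%). Between the adult genotypes 4 genes were held in common, 4 of 9 in adult WT (44.4%, beside 47.8%) and 4 of 10 in adult HET (40.0%, beside 38.7%).

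A shared target gene was often not a shared site. Between E18.5 and P0, all 19 common targets had overlapping sites, as did 95.2% of common targets over all genes, and 22 of the 23 E18.5 sites overlapped a P0 site. The exception was the site over the start of Dvl2. Of the 8 common targets of P0 and adult WT, 4 had overlapping sites (50%, beside 50.1%): Axin1, Axin2, and Fzd3 and Dvl2 at the starts of Fbxo16 and Phf23. Gsk3b, Lrp6, Rspo3 and Sfrp2 were targets of both lists through different places. None of the 4 common targets of adult WT and adult HET had overlapping sites, where 33.1% of such genes did overall. The 11 adult HET sites overlapped no site of any other list. Over all adult HET sites near starts, 12.2% overlapped E18.5, 12.7% P0 and 9.08% adult WT, which comes to about 1 of 11 sites for each list.

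**Figure D3:**
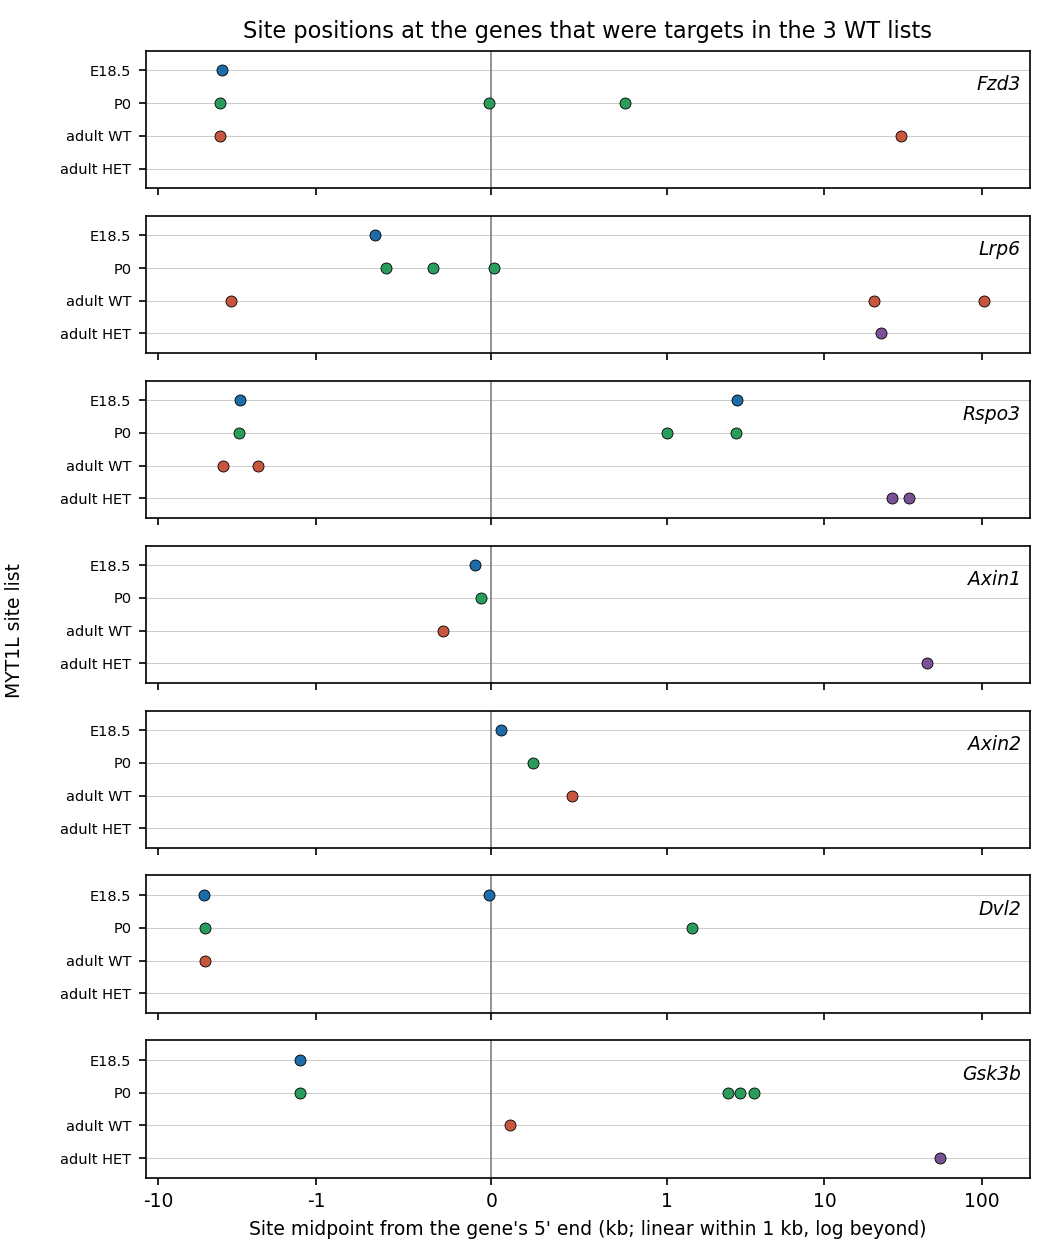
Midpoint of each counted MYT1L site relative to the 5′ end of the gene (horizontal axis, kb, linear within 1 kb and logarithmic beyond) at the 7 genes that were targets in the 3 WT lists, with 1 row per list in each panel. Axin1 and Axin2 hold WT sites within 1 kb of the 5′ end in all 3 lists, the upstream sites of Fzd3 and Dvl2 line up over the 3 WT lists, and every adult HET point lies over 20 kb into the gene.

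Near the Wnt genes, the perinatal sites lay closer to starts than the adult sites did, and over all sites near starts the share that covered a start also fell with age. The midpoints of the sites were at a median of 802 bp from the nearest start of their Wnt gene at E18.5 and 853 bp at P0, against 3453 bp in adult WT and 2982 bp in adult HET. A start of a protein-coding gene, the Wnt gene or a neighbour, was covered by 12 of 23 sites at E18.5 (52.2%, beside 67.0% of all sites near starts), 19 of 69 at P0 (27.5%, beside 39.5%), 3 of 13 in adult WT (23.1%, beside 20.3%) and 0 of 11 in adult HET (beside 6.43%). Of the adult HET sites 10 lay in introns and 1 in a UTR, while 13 of 23 E18.5 sites and 28 of 69 P0 sites lay upstream of the gene. Adult WT sites resembled those of E18.5 in this, with 7 of 13 upstream and 2 in introns. Neither the median distance nor placement in introns or upstream was counted over all sites near starts. With 1 start per gene, its 5′ end, 4 of the 10 adult HET targets were left (6.90%), while the share of all genes fell from 30.4% to 21.1%. The genes just inside the 5 kb limit were Dvl2 in adult WT (4819 bp) and Apc, Axin1 and Wnt5b in adult HET (4761, 4758 and 4444 bp). Just outside it were Dkk2 in adult HET (5561 bp) and Wnt7a and Dkk3 in adult WT (5813 and 6107 bp).

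Site width fell from list to list as the whole lists did. The median width at the 58 genes was 607 bp for E18.5, 238 bp for P0, 188 bp for adult WT and 104 bp for adult HET, beside 611, 307, 181 and 110 bp over all sites near starts. The narrowest E18.5 site (397 bp) was wider than the widest adult HET site (180 bp). Mean GC content was 54.0%, 53.4%, 49.4% and 43.1% in the same order, and the repeat-masked share 10.8%, 9.90%, 18.8% and 25.5%. Over all sites near starts GC content was similar, at 53.7%, 52.4%, 47.3% and 42.0%, and the repeat-masked share was 10.8%, 11.7%, 15.8% and 22.4%. The part of width, GC content, repeats and list size in the differences between lists was not tested. When each list was cut to its 14477 widest sites, P0 had 19 target genes (32.8%, beside 29.1% of all genes), the same number as E18.5 (32.8%, beside 31.7%). Adult WT then had 5 (8.62%, beside 14.2%) and adult HET 3 (5.17%, beside 10.9%), so the shares of all genes fell as well.

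**Figure D4:**
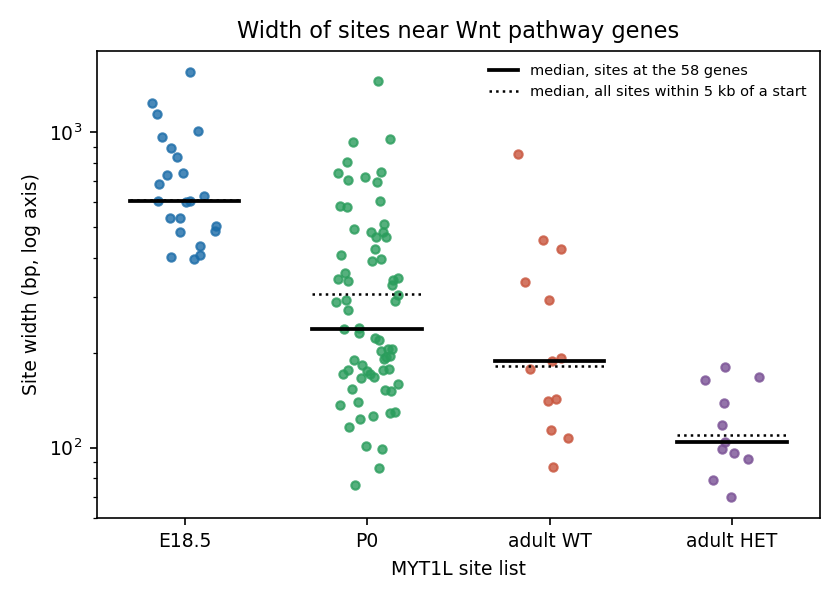
Width of each MYT1L site within 5 kb of a start of the 58 genes (points, bp on a log axis) in the 4 site lists, with solid lines at their median and dotted lines at the median of all sites near protein-coding starts. The solid medians fall from 607 bp at E18.5 to 104 bp in adult HET, close to the dotted ones except at P0, where 238 bp lies under 307 bp.

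The MYT1L core word was about as frequent at these genes as elsewhere. AAAGTT, on either strand within 75 bp of the midpoint, was found in 3 of 23 E18.5 sites (13.0%, exact 95% binomial interval 2.78 to 33.6%), beside 11.2% of all sites near starts. It was found in 10 of 69 P0 sites (14.5%, 7.17 to 25.0%), beside 12.5%. Adult WT had it in 0 of 13 sites (interval up to 24.7%), beside 11.3%, and adult HET in 1 of 11 (9.09%, 0.230 to 41.3%), beside 13.1%. These intervals cover counting error alone, and sites of 1 gene are not independent. The E18.5 matches were at Fzd2, Rspo2 and Tcf7l1, and at Gsk3b 2 intronic P0 sites held the word. The TCF/LEF word ATCAAAG, chosen after the site lists had been seen and able to share bases with AAAGTT, lay anywhere in 3 of 23 E18.5 sites (13.0%, beside 8.52%), at Lrp6, Rspo2 and Axin2. At P0 it lay in 6 of 69 sites (8.70%, beside 4.60%), at Fzd8, Rspo2, Dkk3, Apc, Axin2 and Ctnnb1, and in no adult site (beside 2.93% in WT and 2.03% in HET). A match in these windows is a run of letters and not a measured contact.

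The other 64 Wnt pathway genes on a list of processing enzymes, co-receptors, regulators and nuclear partners had higher shares than the 58 in each list. At E18.5, 25 (39.1%, beside 31.7% of all genes) were targets, and at P0 42 (65.6%, beside 48.7%). In adult WT 17 (26.6%) were, close to the 24.6% of all genes, and in adult HET 23 (35.9%, beside 30.4%). With 1 start per gene, the adult HET share was 20.3%, below the 21.1% of all genes. The nuclear partners of beta-catenin and TCF, 11 genes, had 9 targets at E18.5 (81.8%, beside 31.7% of all genes) and 10 at P0 (90.9%, beside 48.7%). They had 5 in adult WT (45.5%, beside 24.6%) and 3 in adult HET (27.3%, beside 30.4%). They include Tle3 and Tle1, Groucho co-repressors that TCF/LEF factors recruit, with the most site sequence of the 64 (7051 and 6728 bp over the 4 lists). Gsk3a (5275 bp), the paralogue of Gsk3b, Bcl9l (4699 bp), a beta-catenin co-activator, and the casein kinase gene Csnk1g1 (4239 bp) followed. All 9 genes of the planar polarity branch were targets at P0 (beside 48.7% of all genes) and 5 at E18.5 (55.6%, beside 31.7%). In adult WT 3 were (33.3%, beside 24.6%) and in adult HET 6 (66.7%, beside 30.4%). Of the 8 further secreted or membrane inhibitors, 5 were targets at P0 (62.5%, beside 48.7%), 1 in adult HET (12.5%, beside 30.4%) and 0 in the other lists. The 64 genes were not set against genes with a CpG-rich start, of which 75% were P0 targets. Of the 64, 6 were targets in all 4 lists (beside 7.22% of all genes), namely Tle1, Tle4, Chd8, Gsk3a, Csnk1g1 and Vangl1. A further 14 of the 64 were targets in none (beside 35.3% of all genes).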

How the data were processed

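The 58 genes, the gene lists and the alternatives were chosen with earlier results of these data known. CUT&RUN reads were processed by the authors with the nf-core/cutandrun pipeline (mm10). How peaks were called, at which threshold and against which IgG signal is not given in the sources used here. All deposited files hold positions: the authors merged the 3 MYT1L libraries of a group into 1 list, with no score, so depth and replicate error are unknown. The 12 IgG libraries are not analysed here.

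Starts came from GENCODE M21 and sequence from RefSeq GRCm38.p6, both the assembly of mm10. Every start of every transcript of a protein-coding gene counted, a site could serve several genes, and overlap needed 1 bp. Positions count from 1. Site positions are given for genes with sites in all 3 WT lists and the 10 with the most site sequence, and for others where a comparison turns on them. The AAAGTT stretches follow a rule (1 match per gene, none on chromosome 18 or in a UTR), whereas the Axin1 and Axin2 stretches were chosen after the values were seen. The code recovered planted sites in simulated data. Python 3.11.15, pandas 2.3.3, scipy 1.17.1 and pyfaidx 0.9.0.4 were used.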

Additional observations from a re-analysis of the deposited data

How the results depend on the processing

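Of 118 values under other settings, 85 stayed within 1.5 times the reported count (for motif shares, within its interval) and 33 did not. The values that moved follow. Within 1 kb of a start, targets were 5 in adult WT and 2 in adult HET, shared targets 12 (E18.5 and P0), 4 (P0 and adult WT), 1 (adult genotypes) and 1 (all lists), and other pathway targets in adult HET 11. Within 10 kb, adult WT had 14 targets and the adult genotypes shared 7. With 1 start per gene, adult HET had 4, the adult genotypes and all 4 lists shared 0, and the other pathway genes had 13 in adult HET. With sites wider than the median of their list, adult HET had 4, shared targets were 12, 5, 2 and 1 in the order above, and the other pathway genes had 15 in adult HET. With the widest sites in equal number per list, P0 had 19, adult WT 5 and adult HET 3, shared targets were 5 (P0 and adult WT), 1 and 1, and the other pathway genes had 26 at P0 and 10 in adult HET. With starts of protein-coding transcripts alone, an alternative chosen after seeing the data, the adult genotypes and all 4 lists shared 1, Rspo3. The shares of all genes moved with these counts: in adult WT, from 24.6% to 13.9% (1 kb), 33.4% (10 kb) and 14.2% (widest sites), and in adult HET, from 30.4% to 12.1% (1 kb), 21.1% (1 start per gene), 18% (wider than the median) and 10.9% (widest sites). Shares of all genes that were shared targets were 29.8% (E18.5 and P0), 18% (P0 and adult WT), 11.8% (adult genotypes) and 7.22% (all lists). Within 1 kb they were 25.5%, 10.3%, 4.3% and 2.91%. With 1 start per gene, the last 2 were 6.67% and 4.08%. AAAGTT was in 47.8% of E18.5 and 29.0% of P0 sites over the whole site, in 34.8% of P0 sites within 250 bp, and in 0% of adult HET sites within 1 kb of a start (0 of 2). No share over all sites near starts is given under these motif settings, so they are not read as a trait of the Wnt sites. Apart from these constructions, which use fewer or more starts, sites or bases, the cause was not tested. Assigning each site to the gene with the nearest start alone, also chosen after seeing the data, moved none of the counts beyond 1.5 times.

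No paired analysis was possible because the deposited lists are merged over libraries and carry no replicate number, and for the same reason no library was left out. Depth per library is unknown, and an absent site cannot be told apart from a site below the calling limit.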
